A study of Mus musculus with 6 samples.

Results

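The 8 genes described here, Dcn, Lum, Bgn, Fmod, Ogn, Prelp, Aspn and Podn, encode small leucine-rich proteoglycans, and were taken by symbol from a table of 54393 mouse genes. Small leucine-rich proteoglycans are secreted proteins whose curved core of leucine-rich repeats lies along collagen fibrils. Many members carry chondroitin, dermatan or keratan sulfate chains, and the family is known for setting fibril diameter and spacing and for holding growth factors such as TGF-beta in the matrix. In skeletal muscle they are made mainly by fibroblasts, fibro-adipogenic progenitors and the tenocytes of tendon and its muscle junction.

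RNA was sequenced from tibialis anterior (TA), the muscle of the front of the shin, of adult mice. The WT group held samples numbered 1, 3 and 4 (replicates), whose titles name them C57 with no substrain. The Dock3 KO group held replicates 1, 2 and 3, whose titles name no strain. The titles therefore do not say whether the 2 genotypes share a background, and a difference of background cannot be told apart from that of genotype. The knocked-out gene encodes an exchange factor that activates the GTPase Rac, and the labels do not give the allele, how it was made, or whether each muscle came from a different animal. P-values below therefore measure the spread between these samples. Dock3 itself checked the labels. Its normalized counts were 118.1 to 169.3 over the WT samples and 22.4, 1.78 and 1.54 in Dock3 KO replicates 1, 2 and 3. Dock3 KO replicate 1 thus held more Dock3 signal than the other Dock3 KO samples, and the reason was not tested. The fall passed the test (log2 difference -4.76, limma adjusted p = 0.014, between 0.0591 and 0.0771 when WT replicate 1, 3 or 4 or Dock3 KO replicate 2 was left out). Normalized counts of a sample summed to between 23520223 and 33393950, and 1 read was worth 0.775 to 1.52 of them. Dock3 KO replicates 1 and 2 stood apart, since Gm42418 and Lars2 together took 17.9% and 20.3% of their sums, against 3% to 3.64% in the other samples. Both genes are loci where leftover ribosomal RNA is commonly counted. The 10 listed myofibre markers were all detected and their summed level lay between 1641798 and 1821036 in every sample, as the tissue label says. Because a whole muscle was sequenced, fewer cells of a type and less RNA per cell cannot be told apart in any value below.

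The family falls into classes by sequence, and several members lie side by side in the genome. Coordinates are those of GENCODE M21 on GRCm38. Class I is represented by Dcn (ENSMUSG00000019929, chromosome 10, 97479609 to 97518143, plus strand), Bgn (ENSMUSG00000031375, chromosome X, 73483602 to 73495933, plus strand) and Aspn (ENSMUSG00000021388, chromosome 13, 49544443 to 49567565, plus strand). Class II is represented by Fmod (ENSMUSG00000041559, chromosome 1, 134037254 to 134048277, plus strand), Lum (ENSMUSG00000036446, chromosome 10, 97565128 to 97572703, plus strand) and Prelp (ENSMUSG00000041577, chromosome 1, 133910304 to 133921414, minus strand). Ogn (ENSMUSG00000021390, chromosome 13, 49608046 to 49624501, plus strand) belongs to class III and Podn (ENSMUSG00000028600, chromosome 4, 108014791 to 108096445, minus strand) to class V. Dcn and Lum are 47.0 kb apart, Aspn and Ogn 40.5 kb with Omd between them, and Prelp and Fmod 116.0 kb. Aspn and Ogn are overlapped on the other strand by Cenpp, and Prelp by Gm15851. Gm15851 also matched Prelp in the search for near-identical transcripts. Because overlapping genes share bases, that match cannot show a separate copy of Prelp. Podn shares its strand with the overlapping Scp2 and Gm23354. The read pairs were stranded, but whether counting used strand is not given in the sources used here. Overlaps were called from gene starts and ends, introns included, and shared exon bases were not checked. The values of Prelp could hold reads of Gm15851, and those of Aspn and Ogn reads of Cenpp where exons overlap. Strand cannot part Podn from Scp2 and Gm23354, so where exons overlap its values could hold their reads in either case.

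The sequences directly upstream of the start sites of 2 neighbouring pairs are shown, Fmod with Prelp and Aspn with Ogn, because the values below set Fmod and Prelp against Aspn and Ogn. They are from RefSeq on GRCm38.p6, written 5′ to 3′ on the gene's strand, and capitals mark each E-box (CANNTG, which reads the same on both strands). The windows are chr1:134037054-134037253 (plus strand) for Fmod, chr1:133921402-133921601 (minus strand) for Prelp, chr13:49544243-49544442 (plus strand) for Aspn and chr13:49607815-49608014 (plus strand) for Ogn.
Fmod upstream 200 bases: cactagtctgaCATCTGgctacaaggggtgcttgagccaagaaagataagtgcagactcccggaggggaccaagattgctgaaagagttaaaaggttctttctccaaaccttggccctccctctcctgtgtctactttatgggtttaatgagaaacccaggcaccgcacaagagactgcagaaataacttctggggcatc
Prelp upstream 200 bases: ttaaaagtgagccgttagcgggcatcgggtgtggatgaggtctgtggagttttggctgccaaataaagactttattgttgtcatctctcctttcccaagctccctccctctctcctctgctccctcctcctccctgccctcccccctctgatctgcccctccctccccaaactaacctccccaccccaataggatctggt
Aspn upstream 200 bases: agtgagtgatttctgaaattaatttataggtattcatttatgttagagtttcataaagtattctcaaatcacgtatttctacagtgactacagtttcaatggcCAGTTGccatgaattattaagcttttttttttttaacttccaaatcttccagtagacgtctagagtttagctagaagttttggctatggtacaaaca
Ogn upstream 200 bases: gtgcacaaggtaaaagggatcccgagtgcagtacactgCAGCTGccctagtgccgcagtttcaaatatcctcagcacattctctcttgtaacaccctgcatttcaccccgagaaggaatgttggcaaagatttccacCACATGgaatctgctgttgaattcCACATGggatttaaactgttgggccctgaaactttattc
Fmod had 1 E-box, 189 bases before the start site, and Prelp had 0. Aspn had 1, at 97 bases before it, and Ogn had 3, at 162, 63 and 39 bases. E-boxes are common, and 58.2% of 32851 upstream windows of the same length held at least 1. Among the 6 members with a promoter entry, which leave out Dcn and Lum, Aspn had the lowest GC content, 31.0% against a median of 53.0% over those windows. It was also the only one of these 6 to hold a TATA box (TATAAA on either strand, 9.96% of windows). That match lay 178 bases before the start site, on the strand opposite to the gene. The SMAD-binding CAGA element (CAGACA, either strand, 13.8% of windows) and the AP-1 site (TGACTCA, either strand, 3.66% of windows) were in 0 of the 7 windows of these 6 members. The RUNX core (TGTGGT, either strand) was found in Ogn, where it overlaps the E-box at 63 bases, and in 11.2% of all windows. The GC box (GGGCGG, either strand) was found in Bgn and Podn and in 31% of all windows. A match is a run of letters and not a measured binding site.

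Per kilobase of the principal transcript, the family was led by Dcn in every sample. Dcn had a mean level of 9697 normalized counts per kb over the 6 samples (range 7112 to 11851). Fmod followed at 1554 (809.6 to 2643) and Ogn at 1100 (684.3 to 1380). The 3 next genes lay close together, with Bgn at 589.9 (465.8 to 783.3), Prelp at 567.2 (393 to 715.8) and Lum at 377.3 (220.3 to 551.1). Aspn reached 227.9 (177.3 to 279) and Podn 130.1 (109.6 to 158). Only the step from Dcn to Fmod and the step from Aspn to Podn separated neighbours without overlap of their ranges. The order was not the same in each sample, since in WT replicate 4 the per-kb level of Ogn was above that of Fmod, and that of Lum above those of Bgn and Prelp. Divided by the length of all annotated exons instead, Bgn moved to 234 normalized counts per kb, below Prelp and Lum. Dcn, at 2920 per kb of all exons, still led.

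Dcn also made up most of the summed normalized counts of the 8 genes. The sum was 31258, 29928 and 31840 in WT replicates 1, 3 and 4 and 37121, 26750 and 23485 in Dock3 KO replicates 1, 2 and 3. Dcn took 54.8%, 59.3% and 65.4% of it in the WT samples and 51.6%, 55.8% and 53.2% in the Dock3 KO samples. WT sums lay close together, and the Dock3 KO sums spread to both sides of them.

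The question for each gene was whether its normalized count differed between the genotypes. None of the 8 passed the threshold (limma on log2(normalized count + 1), adjusted p under 0.05 over 16031 genes), while 165 genes, 1.03% of those tested, did. Adjusted p-values of the members lay between 0.382 and 0.99. Before adjustment, 2 of 8 members, Aspn and Prelp, had a p under 0.05, as did 10.5% of all genes tested. Only Aspn had values that did not overlap between the genotypes, which was so for 16.2% of all genes tested. The log2 differences, always Dock3 KO minus WT, were below 0 for Dcn, Lum, Ogn and Aspn and above 0 for Fmod, Prelp, Bgn and Podn, of which Bgn and Podn turned below 0 when each sample was scaled to the same total. The same scaling, which moved the median of all genes tested to -0.28, put Dcn at -0.55, Lum at -0.75, Ogn at -0.70, Aspn at -0.67, Fmod at 0.25 and Prelp at 0.11. As deposited, the median of the members was -0.13, beside -0.01 over all genes tested, and it was -0.32 without Dock3 KO replicate 1. The median size without regard to sign was 0.39 for the members and 0.20 for all genes tested. The 95% intervals of the 8 genes together ran from a ratio of 0.494 to one of 2.27, with the highest bound in Fmod and the lowest in Lum. An exact two-sided permutation test of 3 against 3 samples cannot give a p below 0.1.

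**Figure D1:**
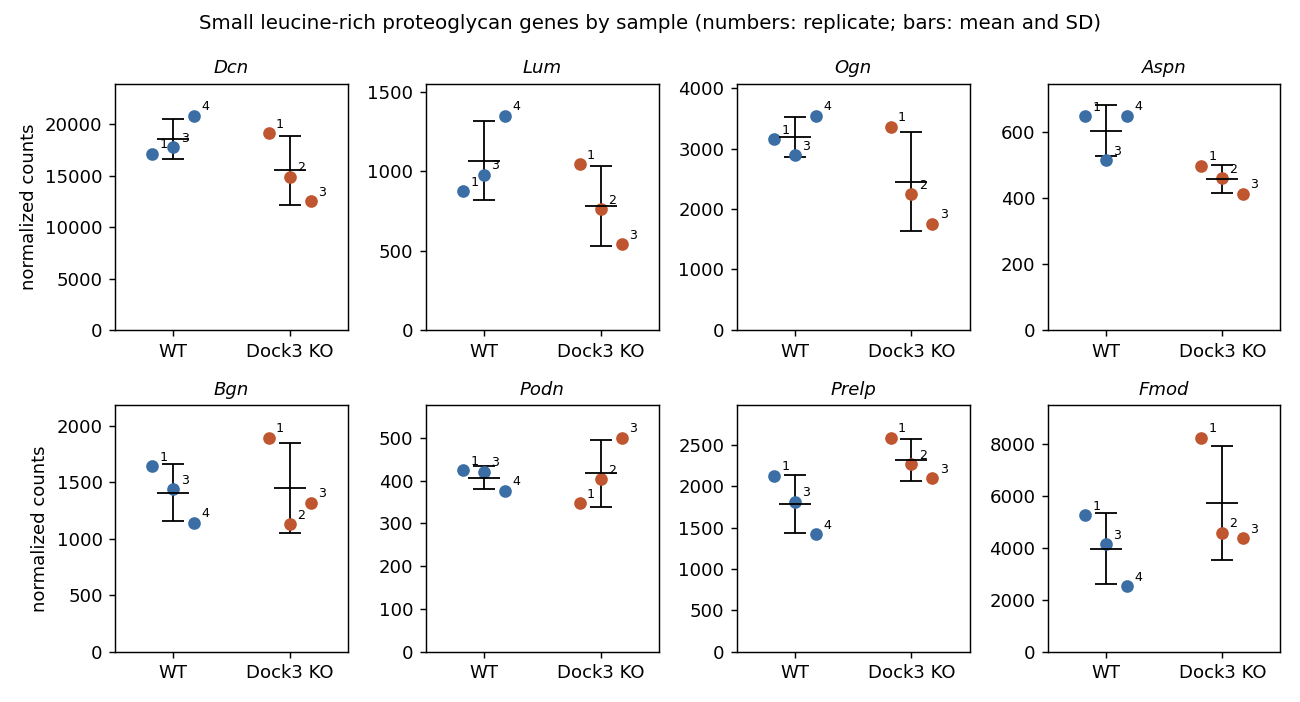
Normalized counts (vertical axis, linear from 0) of each of the 8 genes in the WT and Dock3 KO samples. Points are single samples marked with the replicate number, and the bars are the mean and SD of 3 samples. Aspn is the gene whose 3 Dock3 KO points (413 to 497.9) all lie below the 3 WT points (515.5 to 649.8).

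Decorin, the product of Dcn, carries a single chondroitin or dermatan sulfate chain, binds type I collagen and sequesters TGF-beta. Its normalized count was 17133, 17749 and 20834 in WT replicates 1, 3 and 4 and 19142, 14919 and 12503 in Dock3 KO replicates 1, 2 and 3. Dock3 KO replicate 1 lay inside the WT range and the other 2 Dock3 KO samples below it. The means were 18572 ± 1983 (SD, n = 3) and 15522 ± 3360 (SD, n = 3), with a log2 difference of -0.28 ± 0.17 (SE) and a limma adjusted p of 0.654. It came to -0.13 without Dock3 KO replicate 3 and to -0.44 without Dock3 KO replicate 1.

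Biglycan, the product of Bgn, is the closest relative of decorin and a ligand of innate immune receptors when released from the matrix. Bgn had 1642, 1440 and 1142 normalized counts in WT samples 1, 3 and 4, and 1895, 1127 and 1316 in Dock3 KO replicates 1, 2 and 3. Its lowest and its highest value were both in Dock3 KO samples. The log2 difference was 0.02 (95% interval -0.44 to 0.48, limma adjusted p = 0.99), and its sign turned with the scaling.

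Asporin, the product of Aspn, has an aspartate-rich stretch, typically carries no sugar chain of this kind, and binds collagen and TGF-beta. Aspn had 648.2, 515.5 and 649.8 normalized counts in WT samples 1, 3 and 4 and 497.9, 460.3 and 413 in Dock3 KO replicates 1, 2 and 3. The gap between the genotypes was narrow, between WT replicate 3 and Dock3 KO replicate 1. The means were 604.5 ± 77.1 and 457.1 ± 42.5 (SD, n = 3 each). Its log2 difference of -0.40 ± 0.15 (SE) had a limma p of 0.0277 before and 0.382 after adjustment, and an exact permutation p of 0.1.

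Fibromodulin, the product of Fmod, is a keratan sulfate proteoglycan best known from tendon, where it guides fibril assembly and collagen crosslinking. Fmod had 5261, 4128 and 2526 normalized counts in WT samples 1, 3 and 4 and 8246, 4577 and 4361 in Dock3 KO replicates 1, 2 and 3. WT replicate 1 lay above Dock3 KO replicates 2 and 3, and the group difference rested on the low WT replicate 4 and the high Dock3 KO replicate 1. Fmod had the largest log2 difference of the 8 genes, 0.53 ± 0.29 (SE), and the widest interval (-0.13 to 1.18, limma adjusted p = 0.603). It came to 0.23 without WT replicate 4 and likewise 0.23 without Dock3 KO replicate 1.

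Lumican, the product of Lum, is the class II keratan sulfate proteoglycan that keeps corneal fibrils evenly spaced and is also made by fibroblasts elsewhere. Lum had 873.4, 977.5 and 1349 normalized counts in WT samples 1, 3 and 4 and 1044, 758.6 and 539.3 in Dock3 KO replicates 1, 2 and 3. As for Dcn, Dock3 KO replicate 1 fell within the WT range and replicates 2 and 3 below it. Its log2 difference was -0.48 ± 0.24 (SE), with a limma adjusted p of 0.545, and lay between -0.71 and -0.24 when each sample in turn was left out.

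Prolargin, the product of Prelp, has a basic heparin-binding stretch and can tie collagen to the perlecan of basement membranes. Prelp had 2125, 1811 and 1421 normalized counts in WT samples 1, 3 and 4 and 2588, 2262 and 2095 in Dock3 KO replicates 1, 2 and 3. The genotypes overlapped only through WT replicate 1 and Dock3 KO replicate 3. Its log2 difference was 0.39 ± 0.16 (SE), with a limma p of 0.0396 before and 0.442 after adjustment, and an exact permutation p of 0.2. It came to 0.23 without WT replicate 4.

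Osteoglycin, the product of Ogn and also called mimecan, binds collagen and takes part in fibril growth. Ogn had 3151, 2887 and 3542 normalized counts in WT samples 1, 3 and 4 and 3361, 2243 and 1756 in Dock3 KO replicates 1, 2 and 3. Dock3 KO replicates 2 and 3 were below every WT sample, and replicate 1 was among them. Its log2 difference was -0.43 ± 0.21 (SE, limma adjusted p = 0.533), and came to -0.68 without Dock3 KO replicate 1 and to -0.21 without Dock3 KO replicate 3.

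Podocan, the product of Podn, was first described in the kidney glomerulus and binds collagen. Podn had 424.7, 420.9 and 376.6 normalized counts in WT samples 1, 3 and 4 and 347.3, 403.3 and 501 in Dock3 KO replicates 1, 2 and 3. WT values lay inside the Dock3 KO range. The log2 difference was 0.02 (95% interval -0.36 to 0.40, limma adjusted p = 0.987), and its sign turned with the scaling.

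The samples ranked the members in more than one way. Each gene's log2 values were centred on its mean of 6 samples, and the distance between a pair of genes was the root mean square of the difference of these profiles. Dcn, Lum and Ogn were the closest, at 0.13 for Dcn with Ogn, 0.14 for Lum with Ogn and 0.17 for Dcn with Lum. Aspn lay near Dcn as well (0.17). Fmod and Prelp were 0.27 apart, Bgn was nearest to Prelp (0.25), and the widest distance was that of Fmod from Lum (0.72). Dcn, Lum and Ogn had their highest value of all in WT replicate 4, the sample in which Fmod and Prelp had their lowest. These distances are a description over 6 samples that share libraries and scaling.

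**Figure D2:**
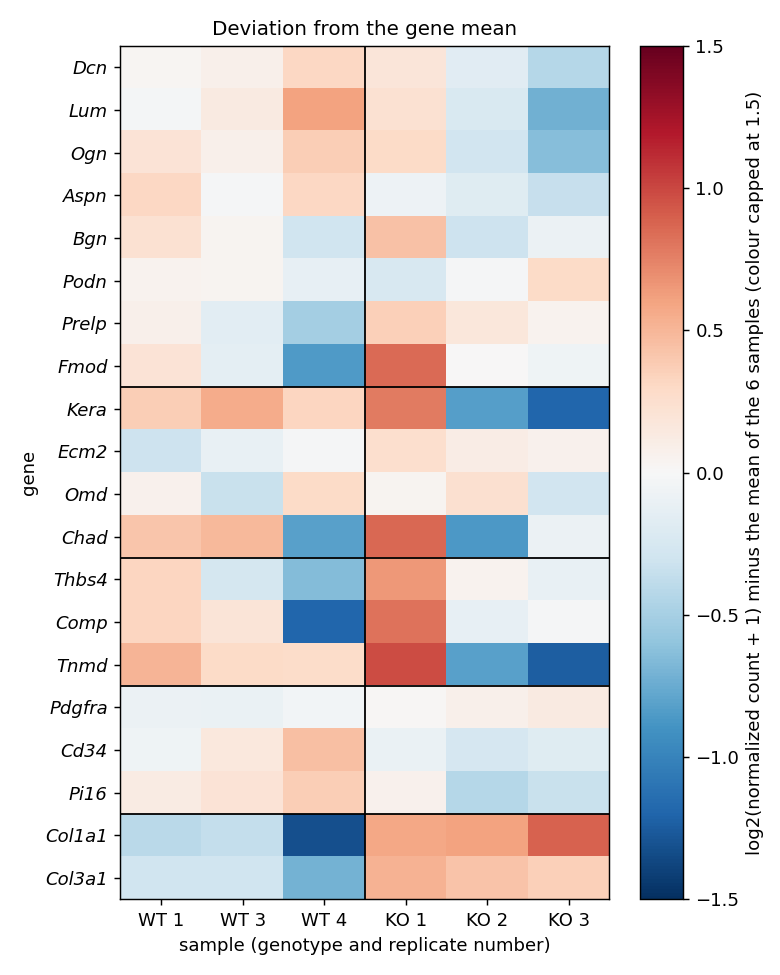
Colour gives the log2(normalized count + 1) of a gene (rows) in a sample (columns) minus the gene's mean of the 6 samples, capped at 1.5 in either direction. The first block holds the 8 genes and the blocks below it other family genes, tenocyte markers, fibroblast markers and collagens. WT replicate 4 is low for Fmod (-0.85) and high for Lum (0.60), and Dock3 KO replicate 1 is high for Fmod (0.85).

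Ratios between members within a sample do not depend on how the samples were scaled. Of the 28 possible pairs, 9 had ratios that did not overlap between the genotypes (32.1%, against 16.8% of all pairs of genes tested). All 9 were among the 12 pairs that join Fmod or Prelp to another of the remaining 6 genes, and 0 were among the other 16 pairs. The 3 exceptions among the 12 were Dcn with Fmod and Podn with either. This grouping was chosen after the values were seen, and the pairs share members, so the 9 are not independent. The ratio of Fmod to Lum was 6.02, 4.22 and 1.87 in WT replicates 1, 3 and 4 and 7.9, 6.03 and 8.09 in Dock3 KO replicates 1, 2 and 3. WT replicate 1 and Dock3 KO replicate 2 all but touched. The ratio of Aspn to Prelp was 0.305, 0.285 and 0.457 in WT and 0.192, 0.204 and 0.197 in Dock3 KO, in the same order of replicates. These Dock3 KO ratios were nearly equal to each other and below each WT ratio. That of Dcn to Prelp was 8.06, 9.8 and 14.7 in WT and 7.4, 6.6 and 5.97 in Dock3 KO. Each of these 9 ratios had an exact permutation p of 0.1, the smallest possible, which was 0.311 when adjusted over the 28 pairs. Their log2 differences were between 0.37 and 1.01 in size.

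Fibrillar collagens are the ligands that these proteoglycans coat, and some of them passed the test. Of 16 listed genes of fibrillar collagens and their processing, 3 passed and were higher in Dock3 KO, 0 were lower, and the median log2 difference was 0.65. Col1a1, a chain of type I collagen, had 3688, 3799 and 1955 normalized counts in WT samples 1, 3 and 4 and 7278, 7411 and 8958 in Dock3 KO replicates 1, 2 and 3. It rose by 1.38 ± 0.23 on the log2 scale (SE, limma adjusted p = 0.0228). Col3a1, of type III collagen, rose by 0.87 (limma adjusted p = 0.0168), and Col5a3, of type V collagen, by 1.56 (limma adjusted p = 0.000769). Col5a3 passed under all 18 alternative settings. Col1a1 missed the threshold without Dock3 KO replicate 1 (limma adjusted p = 0.0559), 2 (0.0856) or 3 (0.0915) and with each sample scaled to the same total (0.0894), and Col3a1 without WT replicate 4 (0.0645), without Dock3 KO replicate 1 (0.0558) or 2 (0.0716), with the same total (0.178) and with the replicate block (0.187).

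**Figure D3:**
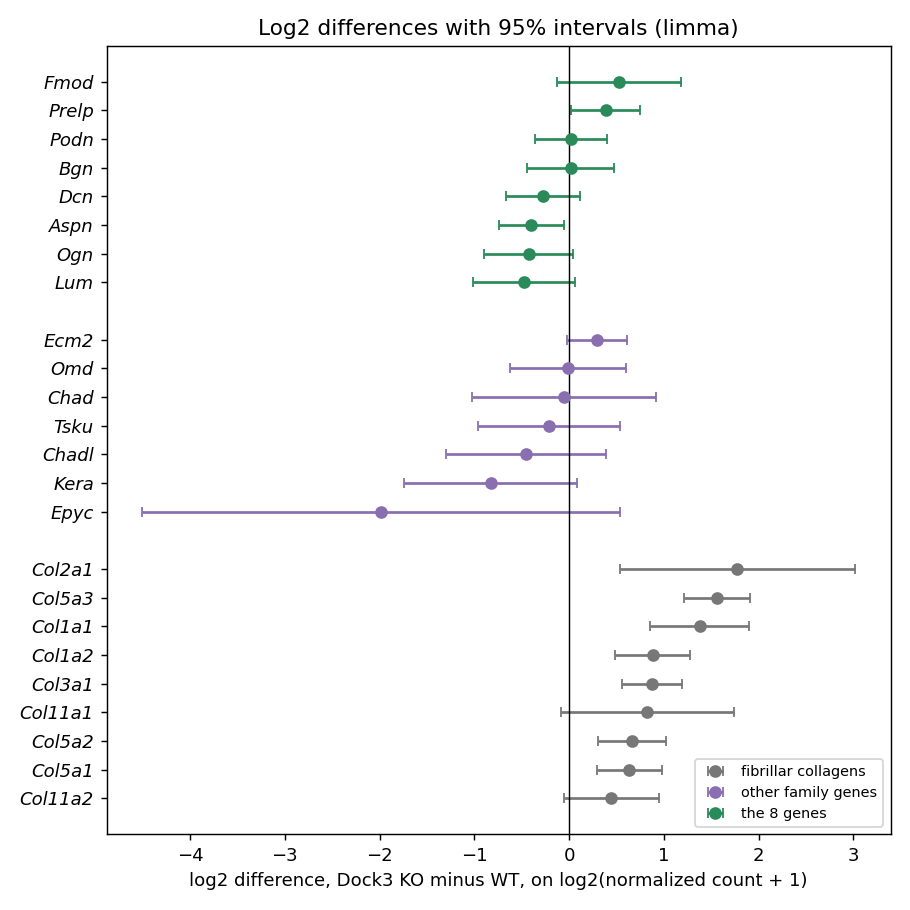
Log2 differences, Dock3 KO minus WT, on log2(normalized count + 1) (horizontal axis) with 95% intervals from limma, for the 8 genes, 7 other family genes and the fibrillar collagens (vertical axis). The 8 genes lie between -0.48 (Lum) and 0.53 (Fmod), on both sides of 0, with Bgn and Podn crossing to below 0 when samples are scaled to the same total, and Col1a1 lies at 1.38.

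Set against Col1a1 in the same sample, 7 of 8 members were lower in every Dock3 KO sample than in any WT sample, all but Fmod. The same was so for 84.4% of all genes tested, so this count is near the background. Dcn, for example, was 4.65, 4.67 and 10.7 times Col1a1 in WT replicates 1, 3 and 4 and 2.63, 2.01 and 1.4 times in Dock3 KO replicates 1, 2 and 3. WT replicate 4, with the lowest Col1a1, had the highest ratio. The log2 difference of the ratio to Col1a1 went from -1.86 for Lum to -0.85 for Fmod, with an exact permutation p of 0.1 for the 7 genes (0.114 adjusted over 8). Against Col3a1, 7 of 8 members, again all but Fmod, were lower in every Dock3 KO sample, as were 72.3% of all genes tested, with log2 differences from -1.35 (Lum) to -0.34 (Fmod). Against Pdgfra, the receptor that marks fibro-adipogenic progenitors, 1 of 8 members, Aspn, was lower in every Dock3 KO sample, as were 17.4% of all genes tested, with an exact permutation p of 0.1 (0.4 adjusted over 8). This depended on the marker. Over the 12 listed fibroblast markers in turn, the Aspn ratio was lower in every Dock3 KO sample for 5 and overlapped for 7. Among the 7 was Pi16, against which Aspn stood at 0.636, 0.478 and 0.538 in WT and 0.512, 0.665 and 0.556 in Dock3 KO. Dcn, Lum and Ogn were each lower for 4 of the 12 markers, and Podn for 1. For Dcn, Lum and Ogn the 4 were Dpt, Smoc2, Col15a1 and Dpp4, themselves at log2 differences of 0.26, 0.37, 0.93 and 0.04. Bgn was lower for 1 and higher for 1, Prelp lower for 1 and higher for 3, and Fmod higher for 1. Of the ratios between all pairs of genes tested, 16.8% did not overlap, in either direction. Apart from Pdgfra, the share of all genes lower or higher against each marker was not computed. These counts follow the markers too and are not a result about the members alone.

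**Figure D4:**
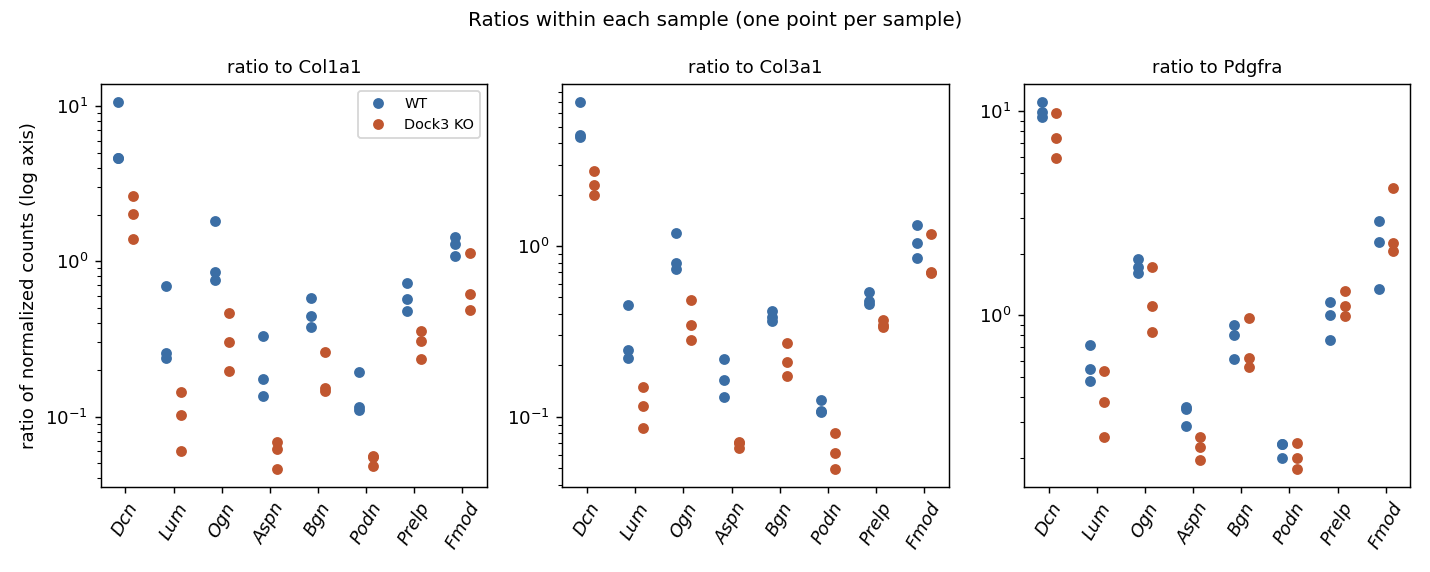
Ratio of the normalized count of each of the 8 genes to that of Col1a1, Col3a1 or Pdgfra in the same sample (vertical axes, logarithmic), with one point per sample for WT and Dock3 KO. For Dcn over Col1a1 the WT points lie from 4.65 to 10.7 and the Dock3 KO points from 1.4 to 2.63, and for Fmod the genotypes overlap.

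Of the 11 other small leucine-rich proteoglycan genes, 7 were measured well enough to test and 0 passed in either direction. Their median log2 difference was -0.21, with 1 above 0 and 6 below. Kera, the corneal keratan sulfate member next to Lum, had 527.8, 600 and 511.4 normalized counts in WT samples 1, 3 and 4 and 702.4, 229.6 and 178.8 in Dock3 KO replicates 1, 2 and 3. Its Dock3 KO samples lay on both sides of WT, with replicate 1 above every WT sample (log2 difference -0.83, limma adjusted p = 0.533). Without Dock3 KO replicate 1, Kera passed at -1.42 (limma adjusted p = 0.0075). Ecm2, next to Aspn, had 473, 545.7 and 579.6 in WT and 701.9, 633.7 and 615.7 in Dock3 KO. Its genotypes did not overlap, in the direction away from that of Aspn, at a log2 difference of 0.29 (limma adjusted p = 0.521). With each sample scaled to the same total, Ecm2 came to 0.015. Of the 11 genes, Ecm2 was the 1 that was higher without overlap, and 3 were lower: Chadl, and Optc and Podnl1 at counts too low to test. Chadl was at -0.45 (limma adjusted p = 0.758). Over all genes tested, 16.2% did not overlap, in either direction. Omd, between Aspn and Ogn, had a log2 difference of -0.01 (limma adjusted p = 0.997).

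Among the protein-coding genes next to the members, Btg2 passed the test. Btg2, an antiproliferative gene induced by stress and serum, lies 26892 bases beyond the end of Fmod. It had 205.5, 287.5 and 286.2 normalized counts in WT samples 1, 3 and 4 and 1209, 573.7 and 541.4 in Dock3 KO replicates 1, 2 and 3, and rose by 1.49 ± 0.29 on the log2 scale (SE, limma adjusted p = 0.0465). This call was lost under 10 of 18 alternatives, among them leaving out WT replicate 1 (limma adjusted p = 0.152), 3 (0.12) or 4 (0.109) or Dock3 KO replicate 2 (0.0861) or 3 (0.0508). Both Btg2 and Fmod were highest in Dock3 KO replicate 1, but so were Bgn, Kera and Thbs4, among others. In Dock3 KO replicates 2 and 3, Fmod lay inside the WT range and Btg2 above it. Btg1 beside Dcn, Haus7 and Atp2b3 beside Bgn, Nol8 beside Ogn and Scp2 over Podn had log2 differences between -0.17 (Scp2) and 0.03 (Btg1, below 0 when samples were scaled to the same total) and did not pass.

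Enzymes that build the sugar chains of these core proteins did not pass the test in either direction. For chondroitin and dermatan sulfate, 0 of 21 genes tested passed, with 12 above 0 and a median of 0.09. The smallest p-values there were those of Dsel, a dermatan sulfate epimerase relative, at 0.61 (limma adjusted p = 0.407), and Chpf2, a chondroitin polymerizing factor, at -0.43 (limma adjusted p = 0.596). Without Dock3 KO replicate 2, Dsel came to 0.33 and Chpf2 to -0.16. For keratan sulfate, 0 of 6 tested passed, with a median of 0.00, and the smallest p-values were those of the galactosyltransferase B4galt1 at 0.33 (limma adjusted p = 0.507) and Fut8 at 0.08 (limma adjusted p = 0.903).

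The family's binding partners, and the proteases that cleave it, likewise held no gene past the threshold. Of 21 binding partners and receptors, 0 passed, 10 were above 0 and 11 below, with a median log2 difference of -0.01. Col6a1, a chain of the beaded-filament collagen that binds decorin and biglycan, was at 0.55 (limma adjusted p = 0.0839), and Ccn2, a matricellular growth factor modulator, at 1.06 (limma adjusted p = 0.119, and 0.0292 without WT replicate 1). Of 9 proteases tested that can cleave these core proteins, 0 passed and 8 were above 0, with a median of 0.24. Adamts4 was at 2.76 (limma adjusted p = 0.0829) with 6.57, 4.39 and 1.53 normalized counts in WT and 41.2, 34 and 20.6 in Dock3 KO, so that its genotypes did not overlap at low counts. Mmp9 had 74, 63 and 57.1 normalized counts in WT and 148.5, 109.2 and 134.3 in Dock3 KO, again without overlap (limma adjusted p = 0.105). Large and cell surface proteoglycans, a separate group from the small ones, had 0 of 17 past the threshold and a median of -0.01, with Hspg2 at 0.35 (limma adjusted p = 0.437) and Sdc4 at 0.30 (limma adjusted p = 0.488).

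Markers of the cells that make these proteoglycans were compared in the same way. Of 12 fibroblast and fibro-adipogenic progenitor markers, all tested, 1 passed, Col15a1, a basement membrane zone collagen, which rose by 0.93 (limma adjusted p = 0.0134), and the median was -0.01. Col15a1 missed the threshold without WT replicate 3 (limma adjusted p = 0.0814) or 4 (0.0672), without Dock3 KO replicate 3 (0.0508), with the same total (0.195) and with the replicate block (0.0839). The other markers parted in both directions. Without overlap between the genotypes, Pi16 (log2 difference -0.47, limma adjusted p = 0.296) and Cd34 (-0.35, limma adjusted p = 0.434) were lower in Dock3 KO, and Smoc2 (0.37, limma adjusted p = 0.362) and Pdgfra (0.15, limma adjusted p = 0.722) higher, none of which passed. These 4 were singled out after their values were seen. With Col15a1, 3 of the 12 markers were higher and 2 lower without overlap. Over all genes tested, 16.2% did not overlap, in either direction. The summed level of the 12 markers was 47272 to 54447 normalized counts in WT and 48597 to 51945 in Dock3 KO, but Gsn alone made up 66.9% to 72.9% of it. The other 11 summed to 13740, 14778 and 16974 in WT samples 1, 3 and 4 and to 16917, 15677 and 16015 in Dock3 KO replicates 1, 2 and 3, with overlap. Of 8 tenocyte markers, all tested, 0 passed and 7 were above 0, with a median of 0.38 (0.11 without WT replicate 4 and 0.69 without WT replicate 1). Cilp2 had the smallest p there, at 1.71 (limma adjusted p = 0.0736, and 0.0128 without WT replicate 1), before Mkx at 0.64 (limma adjusted p = 0.6).

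Fmod and the summed level of the tenocyte markers put the 6 samples in the same order. The summed normalized counts were 6816, 4802 and 3526 in WT samples 1, 3 and 4 and 8408, 5716 and 5514 in Dock3 KO replicates 1, 2 and 3. Thbs4, a thrombospondin of tendon, made up 62.8% to 69.7% of that sum and was the only one of the 8 markers with this order by itself. The sum of the other 7 markers had another order. Tnmd, a defining tenocyte marker, had 262.7, 224.7 and 222.9 normalized counts in WT and 363.8, 103.9 and 77.2 in Dock3 KO, so that it was lowest in Dock3 KO replicates 2 and 3, where Fmod lay inside the WT range. Thbs4 and Tnmd were singled out after their values were seen. The match of Fmod with the sum was the only such case among 64 comparisons of a member with a marker list, and 25 genes, 0.156% of those tested, share this order. No tenocyte marker was at 0 in any sample, and the part of tendon tissue in the Fmod values was not tested.

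Lists of markers of other cell types held no gene past the threshold. For smooth muscle and pericytes 0 of 8 passed (median -0.35, 0.12 without WT replicate 3, -0.12 if Dock3 KO replicate 1 was left out), with Notch3 at -0.40 (limma adjusted p = 0.463) and Rgs5 at 0.35 (limma adjusted p = 0.538). WT replicate 3 stood apart there, with 2371 normalized counts of Acta2 against 487.3 to 686.1 in the other 5 samples (a gene singled out after its values were seen). For endothelium 0 of 7 passed (median -0.02), with Pecam1 at -0.22 (limma adjusted p = 0.631) and Tek at 0.24 (limma adjusted p = 0.718). For leukocytes 0 of 5 tested passed, all 5 were below 0 (median -0.38, and -0.17 without WT replicate 4), and their summed level was 3913 to 4259 in WT and 2859 to 3610 in Dock3 KO without overlap, with Lyz2 at -0.38 (limma adjusted p = 0.348) and Csf1r at -0.38 (limma adjusted p = 0.593). Lyz2 made up 50.1% to 61.6% of this leukocyte sum, and the other 7 markers summed were also lower without overlap. The Aspn values and this leukocyte sum both separated the genotypes in the same direction. Lyz2 was the only leukocyte marker to do so by itself. Csf1r, Adgre1, Cd68 and Ptprc overlapped, and the log2 difference of Ptprc was -0.08. The fibroblast markers Pi16 and Cd34 also separated the genotypes in the direction of Aspn, and 3 other fibroblast markers did so in the opposite direction. Of all genes tested, 16.2% separated the genotypes in either direction, and the part of leukocytes in Aspn was not tested. For adipocytes 0 of 6 passed, with sums of 190.4 to 1148 in WT and 413.6 to 844.4 in Dock3 KO. Their median was 0.56, but -0.15 without WT replicate 4, -0.1 with the replicate block and 1.2 without WT replicate 3. Lep was at 2.26 (limma adjusted p = 0.324, and 0.0265 without WT replicate 3) and Retn at 1.81 (limma adjusted p = 0.419). For myofibres 0 of 10 passed (median 0.05), with Myh2 at 0.55 (limma adjusted p = 0.5) and Myh1 at 0.47 (limma adjusted p = 0.511).

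The genes whose centred profile over the 6 samples was nearest to the mean profile of the members were Nupl2, at a root mean square distance of 0.018, Med4 at 0.038, Pex7 at 0.051, Oaz2 at 0.053 and Cluap1 at 0.063. Nearest to single members were Parn for Dcn (0.038), Casc4 for Bgn (0.032), Pik3ip1 for Aspn (0.043), Gab3 for Fmod (0.112), Bcdin3d for Lum (0.085), Nudt14 for Prelp (0.050), Akip1 for Ogn (0.081) and Dnaaf5 for Podn (0.030). Over so few samples and so many genes, near profiles are a description of these libraries.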

How the data were processed

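RNA from 6 adult TA muscles, 3 WT and 3 Dock3 KO, was depleted of ribosomal RNA and sequenced as stranded read pairs, per the labels' protocols. The authors deposited 1 table of normalized counts, treated here as a signal per gene. Salmon 0.12.0, DESeq2 1.22.1, R 3.5.3, Trim Galore 0.4.5 and FastQC, and the builds mm10 and GRCm38, are named without roles in the submitters' processing notes. Median-of-ratios factors recomputed from the table were 1.005 in all 6 samples. Only 21.4% to 36.7% of low values were whole multiples of 1 read (tolerance 0.02), so reads were not recovered and no count test was run. Depth is therefore an estimate, and precision rests on the replicates.

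Genes with a mean of at least 10 were fitted on log2(value + 1) with limma 3.58.1 in R 4.3.3 (lmFit, eBayes with trend, no covariates). The fit was also run on simulated data with noise independent between genes and changes larger than those of the members. That run does not bear on effects shared by a whole sample or on differences as small as those of the members. P-values were adjusted by Benjamini-Hochberg over 16031 genes, with a threshold of 0.05. Fold changes of low genes are understated on this scale. Symbols and positions came from GENCODE M21, and copies were transcripts of at least 95% identity. Permutation tests and ratios were computed in Python 3.11.15 (pandas 2.3.3, numpy 2.4.6, scipy 1.17.1), with plots by matplotlib 3.10.9. Upstream sequences came from the RefSeq promoter table, which matched 6 of the 8 genes, not Dcn and Lum.

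All 8 members were named, with, from each gene list, those past the threshold or else the 2 of smallest p, the annotated neighbours with a mean of at least 10, and the genes of nearest profile. Dock3, Gm42418, Lars2, Pdgfra, other genes marked in the text and genes that overlap a member are named besides, and a few genes that the rule names are not reported here. The members and lists were chosen with earlier results of these data known. Alternatives changed the pseudocount, filter, scaling, prior variance, covariates and samples. Ratios within samples, marker sums without the most abundant gene, lengths over all exons and the upstream window were added after seeing the data.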

Additional observations from a re-analysis of the deposited data

How the results depend on the processing

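No member passed the threshold under any of 18 alternatives, and the smallest adjusted p was 0.108 (limma, Ogn, samples scaled to the same total). At an unadjusted p under 0.05 there were 2 members in the limma fit reported and between 0 and 4 under the alternatives. Dcn, Lum, Ogn, Aspn, Fmod and Prelp kept their sign in all 18. The median log2 difference of the members moved from -0.13 to -0.40 with the same total, which itself shifted the median of all genes tested to -0.28, and to -0.33 with log2 Gm42418 as a covariate. Relative to all genes it was -0.12, -0.12 and -0.33. With 1 sample left out it ranged from -0.32 (without Dock3 KO replicate 1) to -0.11. With Gm42418 and Lars2 left out of the total, all genes shifted to -0.11. Bgn reversed to -0.26 (same total), -0.084 (same total without Gm42418 and Lars2), -0.022 (quantile normalization) and -0.091 (Gm42418 covariate), and ranged from -0.19 to 0.18 when each sample was left out. Podn reversed to -0.26 (same total), -0.083 (without those genes) and -0.019 (replicate block), and ranged from -0.12 to 0.14 when each sample was left out. The causes were not tested.

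Over all genes, 165 calls became 57 with the Gm42418 covariate (53 of them among the 165), 104 without the variance trend (94 of them among the 165), and between 100 (WT replicate 4 left out; 102 with Dock3 KO replicate 2 left out) and 159 with 1 sample fewer. The share of calls that were higher went from 43.0% to 23.2% with the same total, 31.9% with that total without Gm42418 and Lars2, 29.8% with the covariate and 32.7% without the trend. Same-numbered samples of the 2 genotypes share only a number (correlations of their deviations 0.065 and 0.0066 for replicates 1 and 3). The replicate block gave 127 calls, 0 of them members, and a median of the members of -0.096, and it ended the calls of Col3a1 and Col15a1. Tests on counts need whole reads and were left out. Among the other genes named with a test, Col5a3 alone kept its call under all 18 alternatives, while Dock3 lost it under 6, Col1a1 under 7, Col3a1 and Col15a1 under 8 each and Btg2 under 10. With the same total Fut8 reversed to -0.19, Tek to -0.033 and Btg1 to -0.24, and with that total without Gm42418 and Lars2 Fut8 to -0.020 and Btg1 to -0.070. Omd reversed to 0.053 with quantile normalization and to 0.010 with the replicate block, and with the Gm42418 covariate Btg1 reversed to -0.055 and Nol8 to 0.15. With 1 sample left out, Btg1 ranged from -0.12 to 0.12, Atp2b3 from -0.21 to 0.16, Omd from -0.18 to 0.13, Nol8 from -0.24 to 0.016 and Haus7 from -0.26 to 0.022.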
